A study of Mus musculus with 9 samples.

Results

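The genes described here are Ciita and 7 factors that bind class II promoters or help to do so: Rfx5, Rfxank, Rfxap, Nfya, Nfyb, Nfyc and Creb1. They were read on Affymetrix arrays of mouse dendritic cells, labelled as day 10, from mice labelled CIITA-/-, from mice labelled IAb-/- and from wild-type B6 mice. Each group has 3 arrays, 1 from each of experiments 1, 2 and 3. Experiment 1 was run on a smaller table of 3 arrays with 12654 probe sets, and experiments 2 and 3 on a larger table of 6 arrays with 12488 probe sets. CIITA-/- stands for the lack of Ciita, and IAb-/- for the lack of H2-Ab1, the class II I-A beta chain. For 1 CIITA-/- array the experiment number is missing in its title and was taken as 2. The labels give no treatment, age, targeted exon, culture protocol or number of mice per array. Of the 8 genes, 6 have a probe set on the arrays, out of 8387 genes named there by 1 symbol, with 9 probe sets in the larger table, 10 in the smaller and 10 different ones in all. Rfx5 and Rfxap have none with their symbol on either design, so 2 of the 3 subunits of the RFX complex were not read here.

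MHC class II genes are switched on by a shared promoter module. The RFX complex, built from RFX5, RFXANK and RFXAP, binds its X box, CREB1 binds the adjoining X2 box, and the NF-Y trimer of NFYA, NFYB and NFYC binds its Y box. These factors are present in most cell types. CIITA does not bind DNA by itself. It docks on the assembled factors, recruits chromatin enzymes and the transcription machinery, and is made mainly in antigen-presenting cells or after interferon gamma, so that its presence decides whether class II genes are transcribed.

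The module on which these factors meet is shown for 4 class II genes whose transcripts were lower by value on the arrays labelled CIITA-/- and for H2-Oa, which carries the module but whose CIITA-/- and B6 values overlapped. Sequences are from RefSeq's promoter table (GRCm38.p6), 5′ to 3′ on the gene's strand. Capitals mark an X box searched as CNNNNAAC, a Y box searched as GATTGG, and, where present between them, the cAMP response element TGACGTCA, the consensus site for CREB1.
H2-Aa, chr17:34287861-34287913, minus strand: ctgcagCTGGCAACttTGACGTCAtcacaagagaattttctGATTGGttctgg
H2-Eb1, chr17:34305767-34305818, plus strand: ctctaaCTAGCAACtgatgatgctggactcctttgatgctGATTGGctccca
H2-DMb1, chr17:34153088-34153140, plus strand: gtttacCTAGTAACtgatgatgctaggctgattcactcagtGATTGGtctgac
H2-DMb2, chr17:34145117-34145169, plus strand: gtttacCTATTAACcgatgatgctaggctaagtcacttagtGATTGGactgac
H2-Oa, chr17:34092294-34092346, plus strand: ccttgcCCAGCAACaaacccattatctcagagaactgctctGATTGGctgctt

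The spacing between the boxes was 26 bases in H2-Eb1 and 27 bases in the other 4. H2-Oa holds 2 such matches, and the one with the longer spacing is printed. Of 11 class II genes listed, with Cd74, the invariant chain, counted among them, 8 are in the promoter table. A gene was counted if any of its promoters matched, while shares of all promoters count each promoter. Of these 8, H2-DMa lacks an X box followed by a Y box on the sense strand after 15 to 40 bases. The other 7 hold it, against 0.658% of all 32851 promoters. The search letters were written after the class II promoters had been read, so this share is a description. The X box letters alone occur on either strand in 81.6% of all promoters. A Y box on either strand occurs in 16.1% of all promoters and the cAMP response element in 1.79%. Of the 8 class II genes 1, H2-Aa, holds that element. Of the factors' own genes, 6 of 8 are in the table. Ciita and Rfxap are not, so their promoters were not searched. Of the 6, 3 (Rfx5, Rfxank and Nfyc) hold a Y box on either strand, and 0 hold the X-to-Y arrangement.

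Values are deposited intensities in arbitrary units, and a sizeable part lies below 0, between 21.0% and 26.4% of each array. A noise limit was put at the 95th percentile of how far negative values reach below 0, at 1701 for experiments 2 and 3 and 2203 for experiment 1. In experiments 2 and 3, 60.1% of probe sets other than controls lie under it on all 6 arrays. Differences are on a log2 scale with a floor at each table's 30th percentile (123.5 in the larger, 93.2 in the smaller), which understates the change of dim transcripts. Tests used limma on the larger table (n = 2 arrays in each group), with Benjamini-Hochberg adjustment over 9312 probe sets. Whether arrays of 1 group hold RNA of different mice is not stated, and the p-values therefore cover array-to-array spread that may be technical. The bright end differed between the IAb-/- arrays: the Cre spike-in controls averaged 60407 in experiment 2 and 34615 in experiment 3, against 41952 to 47430 on the other 4 arrays of that table.

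As a check of the cell type, 10 of 10 dendritic cell markers were over the noise limit on 5 of these 6 arrays and 9 of 10 on the IAb-/- array of experiment 2, where Zbtb46 gave 1167. Their summed intensity was 445843 to 454718 on CIITA-/- arrays, 385124 to 534292 on IAb-/- arrays and 414725 to 428991 on B6 arrays. Of 5 T cell markers 0 were over the limit on any array, and of 7 macrophage markers 1 was, Csf1r. B cells also use Ciita. Of 6 B cell markers, 1 to 3 were over the limit on each array, with Pax5 between 2854 and 3467, while Cd79a stayed between 511 and 843. Both plasmacytoid dendritic cell markers read were under the limit on all 6 arrays, and of 7 neutrophil markers 0 to 1 was over it, Camp. Since the RNA is from bulk cells, fewer expressing cells and less RNA per cell cannot be told apart.

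Ciita, the gene named in the label, was dim in every group and was not lower on the arrays labelled CIITA-/-. Its probe set (102917_at) gave 1601 in experiment 2 and 1639 in experiment 3 on CIITA-/- arrays, 398 and 644 on IAb-/- arrays, and 623 and 933 on B6 arrays. In experiment 1 it gave 1822 on the CIITA-/- array, 1224 on the IAb-/- array and 1045 on the B6 array. All 9 values are positive and all 9 lie under the noise limits. Within each experiment the CIITA-/- array was the highest of the 3, and the CIITA-/- values did not overlap those of either other group in the larger table. Over all probe sets, 21% were higher without overlap against B6 and 13.3% against IAb-/-. The position of the Ciita probe set against the deleted segment is not known here, so it does not check the label. H2-Ab1, the gene named in the other label, likewise still gave 12846 ± 4560 on IAb-/- arrays, against 19304 ± 2890 on B6 arrays (SD, n = 2 each, limma adjusted p = 1).

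The difference in Ciita did not pass the test. It averaged 1620 ± 27 on CIITA-/- arrays and 778 ± 219 on B6 arrays (SD, n = 2 each), a log2 difference of 1.09 (SE 0.32, limma adjusted p = 0.77). Against IAb-/- arrays, at 521 ± 174, it was 1.68 (SE 0.32, limma adjusted p = 0.47). Between IAb-/- and B6 arrays it was -0.59 (SE 0.32, limma adjusted p = 1). Within experiments 1, 2 and 3 the differences were 0.80, 1.36 and 0.81 for CIITA-/- against B6, and 0.23, -0.65 and -0.53 for IAb-/- against B6. A larger size than that of Ciita in CIITA-/- against B6 was seen for 4.81% of the probe sets tested. The summed B cell marker intensity was 5841 to 7795 on CIITA-/- arrays, 5878 to 6266 on IAb-/- arrays and 5139 to 6845 on B6 arrays, so these ranges overlap. Of the 5 B cell markers tested in CIITA-/- against B6, 0 passed (limma), with a median log2 difference of 0.22 against 0.01 over all probe sets. Cd79a (0.40), Pax5 (0.23) and Blk (0.22) were higher on CIITA-/- arrays without overlap, the direction of Ciita. Ms4a1 (-0.31) was lower without overlap, and Cd79b (0.03) overlapped. Over all probe sets, 21% were higher and 17.8% lower without overlap in this comparison. Cd79a and Blk were within noise. In experiment 1 Pax5 and Blk were lower on the CIITA-/- array, at -0.25 and -1.03. Of the plasmacytoid dendritic cell markers, Ly6d was also higher on CIITA-/- than on B6 arrays. It gave 540 and 413 on CIITA-/- arrays and -493 and -139 on B6 arrays in experiments 2 and 3. On IAb-/- arrays it fell from 403 in experiment 2 to -348 in experiment 3, while Ciita rose from 398 to 644. All these Ly6d values were within noise (CIITA-/- against B6 1.94, limma adjusted p = 0.78). The other one read, Tcf4, was at -0.25. The part of these cell types in the Ciita values was not tested.

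Rfxank, the ankyrin repeat subunit of the RFX complex, also stayed within noise. Probe set 103801_at gave 314 and 1393 in experiments 2 and 3 on CIITA-/- arrays, 658 and 918 on IAb-/- arrays, and 1092 and 733 on B6 arrays. In experiment 1 it gave 1295 on the CIITA-/- array, 1425 on the IAb-/- array and 617 on the B6 array. The groups overlapped, and the pair of CIITA-/- arrays spanned the other 4. The log2 difference of CIITA-/- against B6 was -0.44 (SE 0.75), with a 95% interval from -2.41 to 1.54 (limma adjusted p = 0.95), and it changed sign between experiments, at -1.80 in experiment 2, 0.93 in experiment 3 and 1.07 in experiment 1. The other Rfxank probe set, 103802_s_at, is on the smaller design alone, where it gave -211 on the CIITA-/- array, -656 on the IAb-/- array and 158 on the B6 array. With values within noise and so wide an interval, the direction of a difference in Rfxank was not resolved.

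**Figure D1:**
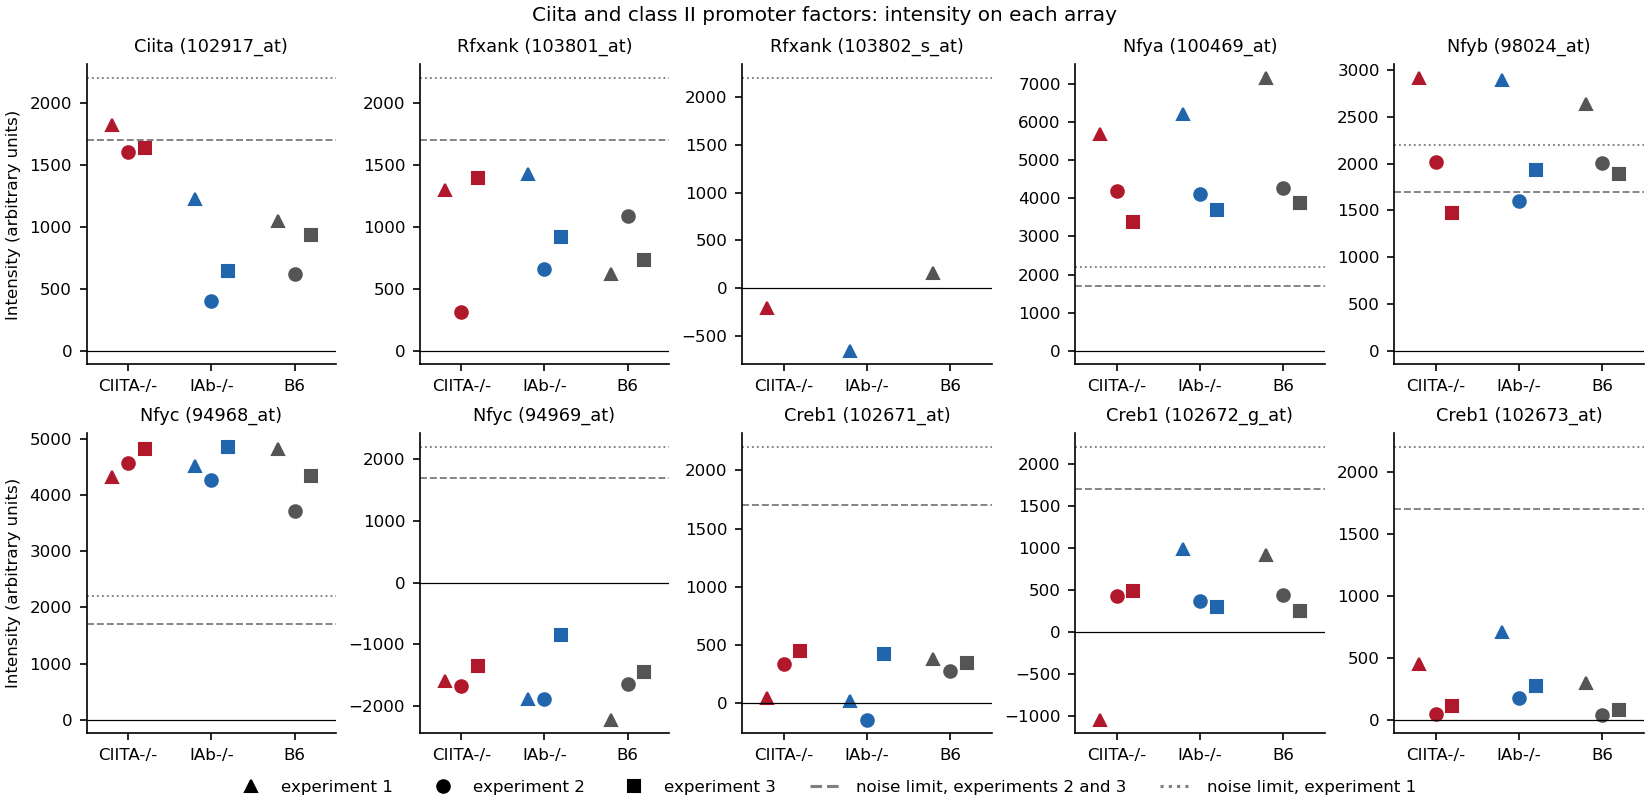
Intensity (arbitrary units) of each probe set of Ciita and the promoter factors on every array, by group, with triangles, circles and squares for experiments 1, 2 and 3. The dashed line is the noise limit of experiments 2 and 3 (1701) and the dotted line that of experiment 1 (2203). Nfya and Nfyc (94968_at) lie above them on all 9 arrays, while Ciita, Rfxank and Creb1 lie below the limit of their own table on every array.

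The NF-Y subunits were the factors read above noise, and they differed little between groups. Nfya encodes the subunit that gives the trimer its contact with the CCAAT sequence. Its probe set gave 4188 and 3379 in experiments 2 and 3 on CIITA-/- arrays, 4107 and 3687 on IAb-/- arrays, and 4259 and 3870 on B6 arrays. In experiment 1 it gave 5696 on the CIITA-/- array, 6216 on the IAb-/- array and 7158 on the B6 array. The groups overlapped in the larger table, where each group's array of experiment 2 was above its array of experiment 3.

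Nfya averaged 3783 ± 572 on CIITA-/- arrays, 3897 ± 297 on IAb-/- arrays and 4064 ± 275 on B6 arrays (SD, n = 2 each). The log2 difference was -0.11 for CIITA-/- against B6 (SE 0.18, limma adjusted p = 0.95), and the 95% interval of the ratio ran from 0.671 to 1.28. For IAb-/- against B6 it was -0.06 (SE 0.18, limma adjusted p = 1), with a ratio between 0.695 and 1.32. Both mutant groups read lower than B6 within each of the 3 experiments, by log2 differences of -0.33, -0.02 and -0.20 in experiments 1, 2 and 3 for CIITA-/- and of -0.20, -0.05 and -0.07 for IAb-/-. These 2 comparisons share the B6 arrays.

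Nfyb, a histone-fold subunit that pairs with NFYC before NFYA joins, lay near the noise limit. It gave 2020 and 1478 in experiments 2 and 3 on CIITA-/- arrays, 1600 and 1935 on IAb-/- arrays, and 2006 and 1887 on B6 arrays. In experiment 1 it gave 2917 on the CIITA-/- array, 2900 on the IAb-/- array and 2634 on the B6 array. It was over the limit on 7 of 9 arrays, and the groups overlapped in the larger table. The log2 difference was -0.17 for CIITA-/- against B6 (SE 0.22, limma adjusted p = 0.93), with a ratio between 0.599 and 1.32. For IAb-/- against B6 it was -0.15 (SE 0.22, limma adjusted p = 1), with a ratio between 0.61 and 1.34. The sign differed between experiments in both comparisons.

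Nfyc, the partner of NFYB in the histone-fold pair, has 2 probe sets that disagree. Probe set 94968_at gave 4574 and 4824 in experiments 2 and 3 on CIITA-/- arrays, 4266 and 4859 on IAb-/- arrays, and 3718 and 4345 on B6 arrays. In experiment 1 it gave 4317 on the CIITA-/- array, 4516 on the IAb-/- array and 4816 on the B6 array. The CIITA-/- values were above the B6 values without overlap in the larger table, and below in experiment 1. The log2 difference was 0.22 for CIITA-/- against B6 (SE 0.16, limma adjusted p = 0.93), with a ratio between 0.87 and 1.57. For IAb-/- against B6 it was 0.18 (SE 0.16, limma adjusted p = 1), with a ratio between 0.843 and 1.52. Within experiments 1, 2 and 3 the CIITA-/- differences were -0.16, 0.30 and 0.15. Probe set 94969_at was below 0 on all 9 arrays, between -2221 and -852, so it was not tested and gives no level.

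Creb1, the factor of the X2 box, has 3 probe sets, and all were within noise on all 9 arrays. Probe set 102671_at gave values between -141 and 445, probe set 102672_g_at between -1048 and 984, and probe set 102673_at between 34 and 707. They did not move together. Their log2 differences in CIITA-/- against B6 were 0.33, 0.47 and 0 in that order, the 0 because all 4 values of 102673_at lay under the floor. For 102673_at, IAb-/- against B6 gave 0.82 (SE 0.25, limma adjusted p = 0.99), from 175 and 274 on IAb-/- arrays and 34 and 76 on B6 arrays in experiments 2 and 3. In experiment 1 that probe set gave 452 on the CIITA-/- array, 707 on the IAb-/- array and 298 on the B6 array, so IAb-/- was the highest in each experiment, at levels where the larger table's noise limit is several times the value.

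**Figure D2:**
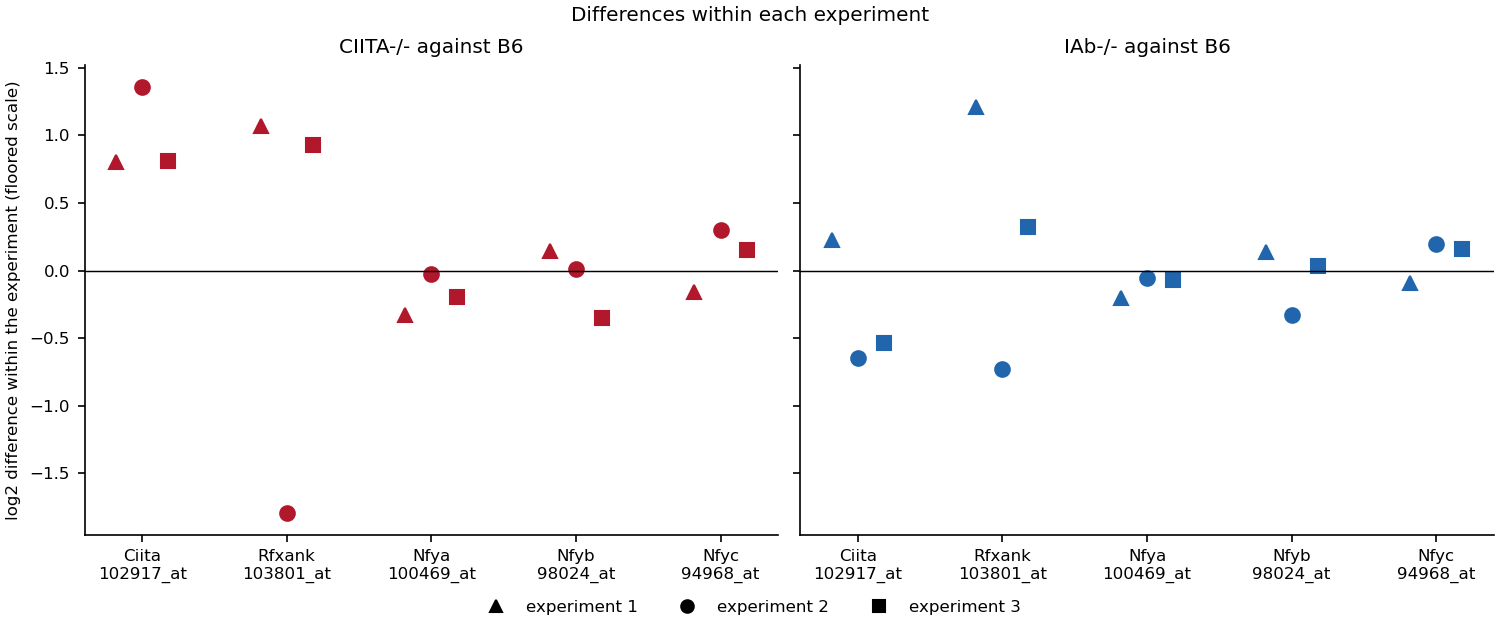
Log2 difference within each experiment (floored scale) for the brightest probe set of Ciita, Rfxank, Nfya, Nfyb and Nfyc, with CIITA-/- against B6 on the left and IAb-/- against B6 on the right. Creb1 and the dimmer probe sets of Rfxank and Nfyc are not drawn. Ciita is above 0 in all 3 experiments on the left and in experiment 1 on the right, Rfxank spans both signs, and the NF-Y subunits stay between -0.35 and 0.30.

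Counted together, 0 of the 8 probe sets tested for these genes passed in any of the 3 comparisons (limma), where 0.0966% of all probe sets passed in CIITA-/- against B6, 0.0107% in IAb-/- against B6 and 0.0215% in CIITA-/- against IAb-/-. At an unadjusted p under 0.05 there were 1, 1 and 2 of 8 in the same order, against 5.86%, 4.31% and 4.54% of all probe sets. The 1 in CIITA-/- against B6 was Ciita, the 1 in IAb-/- against B6 was Creb1 102673_at, and the 2 in the last comparison were the same pair. Of the 8, 5 were within noise in each comparison, which leaves Nfya, Nfyb and Nfyc 94968_at.

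Directions alone can be read against the arrays as a whole. Against B6, 2 of 8 on CIITA-/- arrays were higher without overlap in the larger table (Ciita and Nfyc 94968_at), where 21% of all probe sets were, and 0 were lower without overlap, where 17.8% were. Higher in CIITA-/- in all 3 experiments was 1 of 8 (Ciita), against 13.6% of the 7610 tested probe sets on both designs, and lower in all 3 was 1 of 8 (Nfya), against 12.6%. In IAb-/- against B6, 1 of 8 was higher without overlap (background 16.5%), 0 lower (15.8%), 1 higher in all 3 experiments (12.7%) and 1 lower (12.2%). In CIITA-/- against IAb-/-, 2 of 8 were higher without overlap (13.3%), 1 lower (12.6%), 1 higher in all 3 experiments (10.4%) and 1 lower (11.9%).

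The targets of these factors, the class II genes, included some that were far lower on the arrays labelled CIITA-/-. Of 10 tested, 3 fell against B6 and 0 rose (limma). They were H2-Aa, the I-A alpha chain, at -1887 ± 519 on CIITA-/- arrays and 52493 ± 1535 on B6 arrays (SD, n = 2 each, limma adjusted p = 0.0081), H2-Eb1, the I-E beta chain, at 937 ± 173 and 28240 ± 3079 (limma adjusted p = 0.036), and H2-DMb2, a chain of the peptide-loading molecule, at 302 ± 2.26 and 4388 ± 217 (limma adjusted p = 0.036). With the noise limit in place of the dim group these are falls of at least 30.9-fold, at least 16.6-fold and at least 2.58-fold. Both H2-Aa values on CIITA-/- arrays were at the floor, so its test counts no spread in that group. The 3 calls were lost with the experiment as a block, with 0 passing, and without either B6 array or either CIITA-/- array, also 0. Without either IAb-/- array, or with no filter on dim probe sets, 1 passed.

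H2-Oa, whose module is printed above, was at 2614 ± 991 on CIITA-/- arrays and 2236 ± 901 on B6 arrays (log2 difference 0.23, limma adjusted p = 0.95). The median log2 difference over the 10 class II genes was -1.41, against 0.01 over all 9312 probe sets and 0.11 over the 8 probe sets of Ciita and the promoter factors. Not all were lower. Cd74 was at 144281 ± 3132 on CIITA-/- arrays and 133951 ± 6162 on B6 arrays (log2 difference 0.11, limma adjusted p = 0.97). It was higher without overlap, as were 21% of all probe sets, and its difference in experiment 1 was 1.25. H2-Ob, within noise, was at 0.31, and at -1.69 in experiment 1. H2-DMa was at -0.86 (limma adjusted p = 0.88). In IAb-/- against B6, 0 of the 10 class II genes passed, with a median of -0.53 against 0.01 over all. At an unadjusted p under 0.05 (limma) there were 6 of 10 in CIITA-/- against B6, where 5.86% of all probe sets were. In IAb-/- against B6 there were 2 (4.31%), and in CIITA-/- against IAb-/- there were 5 (4.54%). H2-Ea, counted in both comparisons with B6, was within noise. Against IAb-/- arrays, 1 of 10 fell on CIITA-/- arrays (H2-Aa, log2 difference -8.23 on the floored scale, limma adjusted p = 0.011), with a median of -1.03 against 0.00 over all.

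**Figure D3:**
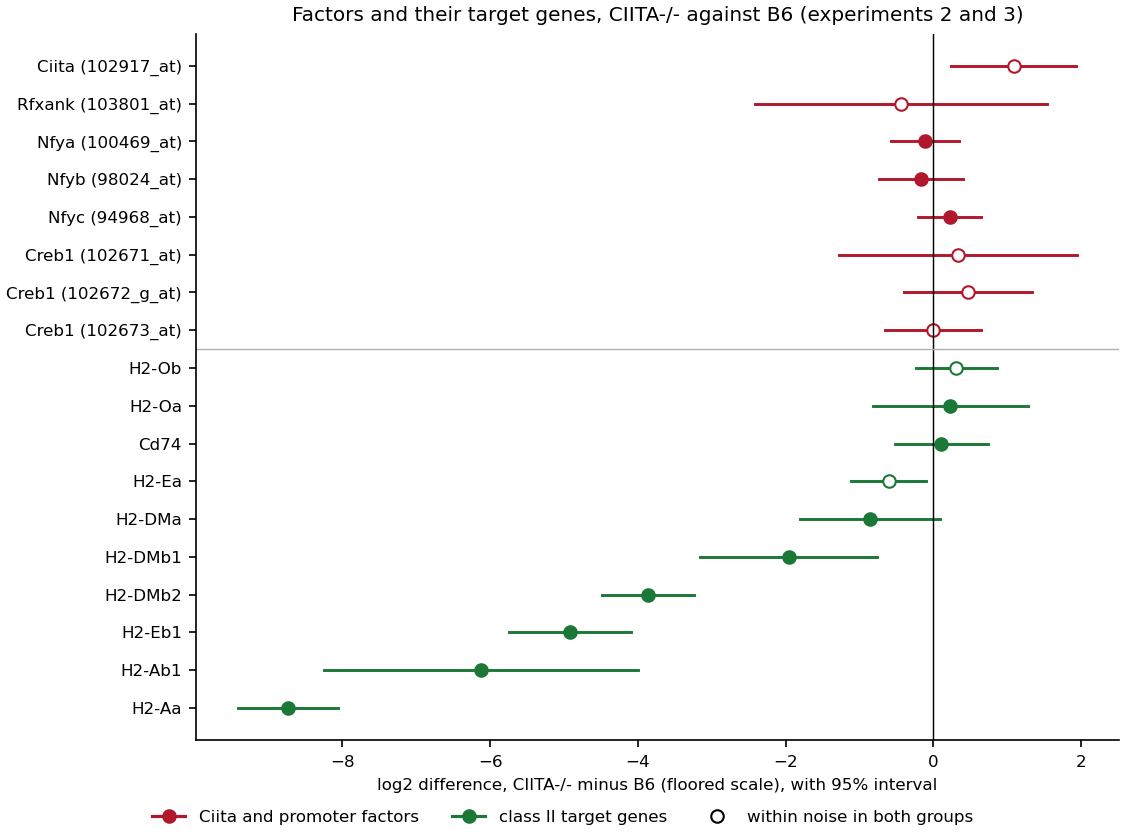
Log2 difference of CIITA-/- minus B6 (floored scale, experiments 2 and 3) with its 95% interval from limma, for the probe sets of Ciita and the promoter factors above the line and for the class II genes below it. Open points are within noise in both groups. Nfya, Nfyb and Nfyc lie between -0.17 and 0.22, while H2-Aa, H2-Ab1, H2-Eb1 and H2-DMb2 lie between -8.73 and -3.86. Among these, H2-Ab1 (-6.12) did not pass (limma adjusted p = 0.28).

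Genes known to act on Ciita transcription or its signal were read on the same arrays. Of 19 listed, 16 were tested, and 0 passed in any comparison (limma), with 0, 1 and 0 at an unadjusted p under 0.05 in CIITA-/- against B6, IAb-/- against B6 and CIITA-/- against IAb-/-. Their medians were -0.02, 0.03 and 0.02, near the 0.01, 0.01 and 0.00 over all probe sets. Irf1, an interferon-induced activator of a Ciita promoter, had the 1 unadjusted call, at 3254 ± 439 on IAb-/- arrays and 5391 ± 130 on B6 arrays (log2 difference -0.73, SE 0.24, limma adjusted p = 1). On CIITA-/- arrays it was at 3970 ± 1073 (-0.47 against B6, limma adjusted p = 0.93). In experiment 1 the Irf1 differences were -0.20 for IAb-/- and 0.51 for CIITA-/-.

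Other regulators did not pass against B6 either (limma), which does not show that their levels were equal. In CIITA-/- against B6, Prdm1, Usf1 and Usf2 lay outside the 25th to 75th percentile of all probe sets (-0.19 to 0.21). Prdm1, a repressor of Ciita in plasma cells, lay near the noise limit, at 1482 ± 149 on CIITA-/- arrays, 1626 ± 151 on IAb-/- arrays and 1885 ± 115 on B6 arrays (CIITA-/- against B6 -0.35, limma adjusted p = 0.91). Usf1, which binds an interferon-responsive Ciita promoter, was at 8188 ± 640 on CIITA-/- arrays and 6818 ± 362 on B6 arrays (log2 difference 0.26, limma adjusted p = 0.93). Its relative Usf2 had a log2 difference of 0.34 in the same comparison (limma adjusted p = 0.93), and -0.40 in experiment 1.

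Among the chromatin enzymes and general factors that CIITA recruits or meets at the promoter, 15 of 19 listed were tested and 0 passed in any comparison (limma), with 0 at an unadjusted p under 0.05 in each. The medians were -0.07, -0.05 and 0.09 in CIITA-/- against B6, IAb-/- against B6 and CIITA-/- against IAb-/-. Smarca4, the ATPase of a chromatin remodelling complex, was at 2903 ± 108 on CIITA-/- arrays and 3283 ± 120 on B6 arrays (log2 difference -0.18, limma adjusted p = 0.93). Ncoa3, a histone acetyltransferase coactivator, was at 1304 ± 110 on CIITA-/- arrays, 1301 ± 19 on IAb-/- arrays and 1661 ± 99.7 on B6 arrays. All were under the noise limit but 1 B6 array (CIITA-/- against B6 -0.35, limma adjusted p = 0.88). In experiment 1 the Ncoa3 differences from B6 had the other sign, at 0.26 for CIITA-/- and 0.087 for IAb-/-. Cdk7 had a larger size in CIITA-/- against B6 (0.57, limma adjusted p = 0.93), within noise and with overlap.

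Relatives of the factors form the last list. Of 19 listed, 7 have a probe set in the larger table and 6 were tested. None passed (limma), with 1, 1 and 0 at an unadjusted p under 0.05 in the 3 comparisons. Atf4, a bZIP relative of CREB1 in the stress response, was at 23969 ± 2638 on CIITA-/- arrays and 17982 ± 79.3 on B6 arrays (log2 difference 0.41, SE 0.15, limma adjusted p = 0.83), and at -0.03 in experiment 1. Rfx2, a relative of RFX5, was within noise, at 121 ± 26 on IAb-/- arrays and 279 ± 25 on B6 arrays (-1.09, limma adjusted p = 1).

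**Figure D4:**
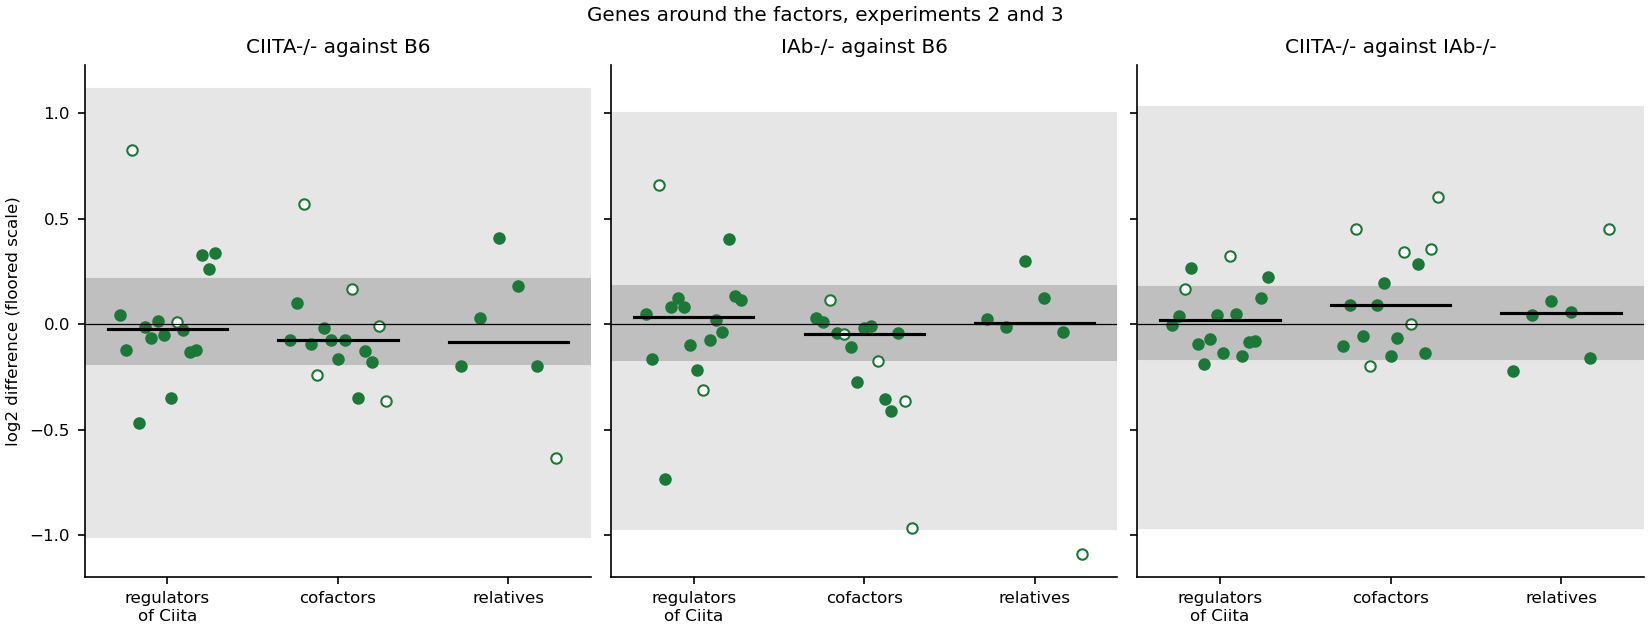
Log2 difference (floored scale, experiments 2 and 3) of the tested regulators of Ciita, cofactors and relatives in CIITA-/- against B6, IAb-/- against B6 and CIITA-/- against IAb-/-. Each point is a gene, open where within noise, the bar is the list's median, and the dark and light bands hold the middle 50% and 95% of all 9312 probe sets. The list medians lie between -0.08 and 0.09.

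The probe sets whose pattern over the 6 arrays was most like that of Ciita were C1qbp (r = 0.98), Pih1d1 (0.97), Lypla1 (0.97), Ndufv2 (0.97) and Kdelr2 (0.96), by Pearson correlation of floored log2 values among 4466 probe sets with 1 symbol over the noise limit on at least 1 array. These 6 arrays share 3 groups and 2 experiments, and the correlations are descriptive. C1qbp, a mitochondrial matrix protein, was at 10017 and 10084 on CIITA-/- arrays, 8720 and 9372 on IAb-/- arrays, and 9301 and 9662 on B6 arrays in experiments 2 and 3, a far narrower span than that of Ciita. In experiment 1 it gave 8940 on the CIITA-/- array, 8771 on the IAb-/- array and 9125 on the B6 array, so the CIITA-/- array was not the highest there. Pih1d1 gave 1710 on the CIITA-/- array, 3458 on the IAb-/- array and 2350 on the B6 array of experiment 1, so the CIITA-/- array was the lowest. Kdelr2, a receptor that returns proteins to the endoplasmic reticulum, kept the CIITA-/- array on top in experiment 1, at 6041, against 5992 on the IAb-/- array and 5656 on the B6 array. The Lypla1 and Ndufv2 probe sets are not in the table of experiment 1.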

How the data were processed

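Each deposited table gives linear intensity readings by probe set. Negative readings and a near-equal 2% trimmed mean on all arrays of a table (2502.2 to 2502.6 in the larger, 2500 in the smaller) show background subtraction and scaling in the deposited values; the algorithm used: not given in the sources used here. Group and experiment were taken from the titles. In 1 title, of a CIITA-/- array, the experiment number is missing, and it was given 2, the number left over in its group. Symbols come from the platform annotation, and a probe set annotated to more than 1 gene got no name.

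Intensities were floored at the 30th percentile of their table and turned to log2. Those exceeding the floor on 2 or more arrays entered limma 3.58.1 (lmFit, then eBayes; R 4.3.3), all 3 groups in 1 fit with 3 residual degrees of freedom. Intervals are limma's 95% intervals, unadjusted. The code was tested on simulated data. Experiment 1 took no part in the fit. The titles' experiment numbers pair the arrays. The differences between experiments 2 and 3 correlated across probe sets between groups at 0.21 (CIITA-/- and IAb-/-), 0.05 (CIITA-/- and B6) and 0.08 (IAb-/- and B6). Alternatives were a higher floor, quantile normalization, no filter, the experiment as a block, a block over all 9 arrays and leaving out each array. The genes, lists and noise limit were chosen with earlier results of these data known. All probe sets of the listed genes were named, with up to 4 genes per further list and comparison by smallest p; a further list takes the brightest probe set of each gene. H2-Oa, H2-DMb1, H2-DMa, H2-Ob, Cd74 and the printed promoters were chosen after their values were seen. The number of arrays limits the precision.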

Additional observations from a re-analysis of the deposited data

How the results depend on the processing

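In each alternative, 0 of the tested probe sets of Ciita and the promoter factors passed in each comparison (limma), with the replicate block (0) as without it, and the lowest adjusted p over all alternatives was 0.39. Of 255 log2 differences recomputed for them, 230 kept their direction and 25 did not. Part of the 230 could not change. The replicate block and the run with no filter leave every estimate as it was (24 in each). Leaving out an array leaves the comparison of the other groups unchanged, and a difference of 0 was counted as kept. The floor at the 20th percentile could not be run, since that percentile is below 0. The 40th was chosen after seeing the data, and it turned Creb1 102671_at in IAb-/- against B6 to 0.14. With the block over all 9 arrays, CIITA-/- against B6 turned for Creb1 102671_at (-0.46), Creb1 102672_g_at (-0.78) and Rfxank (0.066), IAb-/- against B6 for Creb1 102672_g_at (0.034) and Rfxank (0.27), and CIITA-/- against IAb-/- for Creb1 102672_g_at (-0.82). There Ciita was at 0.99 in CIITA-/- against B6 (SE 0.28, limma adjusted p = 0.90), and Nfya had a ratio between 0.726 and 1.07.

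Leaving out 1 array turned 18 of 138 differences. Differences between groups that kept all their arrays could not change, yet they are counted in the 138. In CIITA-/- against B6, Ciita ran from 0.80 to 1.38, Rfxank from -1.51 to 0.64, Nfya from -0.26 to 0.045 and Nfyb from -0.40 to 0.054. In IAb-/- against B6, Rfxank ran from -0.49 to 0.084, Nfya from -0.14 to 0.017, Creb1 102671_at from -1.31 to 0.46 and Creb1 102672_g_at from -0.43 to 0.42. In CIITA-/- against IAb-/-, Rfxank ran from -1.31 to 0.84, Nfya from -0.20 to 0.11, Nfyb from -0.25 to 0.20, Nfyc from -0.049 to 0.14 and Creb1 102671_at from -0.12 to 1.64. The causes were not tested.

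Class II genes called in CIITA-/- against B6, 3 as reported, were 1 with no filter, 0 with the replicate block and 0 to 1 without 1 array, and 4 with the 40th percentile floor or the block over all 9 arrays. In CIITA-/- against IAb-/-, 1 as reported, they numbered 3 with all 9 arrays under the block, 0 with the replicate block and 0 to 1 without 1 array. Over all probe sets, calls in CIITA-/- against B6 were 9 as reported, 14 with no filter, 5 with the higher floor, 4 over all 9 arrays and 0 with the replicate block. For IAb-/- against B6 they were 1, 5, 0, 0 and 0 in that order, and 3 with quantile normalization. For CIITA-/- against IAb-/- they were 2, 7, 1, 3 and 0, and without 1 array 0 to 1. That range also holds for CIITA-/- against B6, and IAb-/- against B6 had 0 without any 1 array. Signal over background limits Ciita, Rfxank and Creb1, whose values all lie under the noise limits.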
